A study of Mus musculus with 28 samples.

Results

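The small leucine-rich proteoglycans (SLRPs) were followed across the mice of a tail tendon transcriptome study as 9 genes chosen by name, namely *Dcn* (decorin), *Bgn* (biglycan), *Fmod* (fibromodulin), *Lum* (lumican), *Kera* (keratocan), *Prelp* (prolargin), *Ogn* (osteoglycin), *Aspn* (asporin) and *Omd* (osteomodulin). These were 9 of the 25719 genes in the count tables, and all 9 passed the filter on low counts in every comparison. A further 9 genes of the same protein family were read beside them.

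SLRPs are secreted proteins whose leucine-rich repeats form a curved surface that binds collagen fibrils. In tendon they sit along the fibrils, where they are known for regulating fibril diameter, spacing and lateral fusion. Decorin and biglycan carry chondroitin or dermatan sulfate chains, fibromodulin, lumican, keratocan and osteomodulin can carry keratan sulfate and sulfated tyrosines, and asporin and prolargin are not typical proteoglycans. Several family members also bind growth factors such as transforming growth factor beta, and fragments of biglycan and decorin can engage Toll-like receptors.

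RNA came from tail tendon fascicles that were homogenised whole, with 1 library per mouse on a background that the labels call C57BL/6 and the methods of the study C57Bl6/J. Fosl-2(Tg) mice carry the murine *Fosl2* gene (exons 1 to 4), which encodes an AP-1 transcription factor, at a random site behind the H2Kb promoter, which belongs to a class I histocompatibility gene, with eGFP expressed from the same transcript. WT controls were non-transgenic mice of the same breeding, and the labels name no treatment for either genotype. The early stage (mice of 6 to 8 weeks) comprised 7 WT and 8 Fosl-2(Tg) mice, all male, and the established stage (older than 14 weeks) comprised 6 WT and 7 Fosl-2(Tg) mice, with 1 male in each genotype, which was replicate 5 of both. Age and sex therefore cannot be told apart between the stages, and the promoter of the transgene is active in most nucleated cells rather than in tendon cells alone.

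Counts per library summed to between 9645598 and 66894396. *Fosl2* itself did not separate the genotypes, and its counts do not tell reads of the endogenous gene from those of the transgene. Its level in CPM (counts scaled to library size with TMM factors) ran from 58.8 to 136.2 in early WT and from 63.4 to 156.2 in early Fosl-2(Tg) mice, and from 78.1 to 169.4 in established WT and from 121.0 to 160.1 in established Fosl-2(Tg) mice. The tissue label was checked against 8 tendon fibroblast markers that are not SLRPs (*Scx*, *Mkx*, *Tnmd*, *Thbs4*, *Comp*, *Ptx4*, *Col1a1* and *Col1a2*), of which none was at 0 in any group. Their summed level ran from 79270 to 162200 CPM in established WT and from 2909 to 53680 CPM in established Fosl-2(Tg) mice, so these groups did not overlap. Most of this sum was *Col1a1* and *Col1a2*, so it says little about the other markers. Their means were 73460 and 40700 CPM in established WT and 12950 and 8647 CPM in established Fosl-2(Tg) mice. The lowest sum belonged to the male Fosl-2(Tg) mouse, replicate 5, which also had the highest skeletal muscle marker sum of its group (6608 CPM) and the lowest level of 7 of the 9 SLRPs. In bulk tissue, fewer tendon cells and less RNA of these genes per tendon cell cannot be told apart. Several fold changes and ratios below are given with and without this male mouse, and the co-variation over all mice includes it.

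Apart from *Bgn* on the X chromosome (72527208 to 72539541, plus strand, GRCm39), the genes lie in 3 clusters. On chromosome 10, *Dcn* (97315275 to 97358155), *Lum* (97400990 to 97408577) and *Kera* (97442728 to 97449554) follow each other on the plus strand, with the family gene *Epyc* next. On chromosome 1, *Prelp* (133837335 to 133857971, minus strand) and *Fmod* (133964992 to 133976015, plus strand) lie beside *Optc*. On chromosome 13, *Aspn* (49697609 to 49721057), *Omd* (49735938 to 49746298) and *Ogn* (49761349 to 49780412) lie on the plus strand beside *Ecm2*. The 250 bases before the canonical start of 8 of the genes, all but *Kera*, were searched on both strands for the AP-1 site TGANTCA, the CRE-type AP-1 site TGACGTCA and the E-box CATCTG, a form of the element read by basic helix-loop-helix factors such as Scleraxis. Neither AP-1 letter string was in the window of any of these 8 genes, and these were present in 6.18% and 1.69% of 21571 windows of protein-coding genes. The window of *Fmod* is shown because it was the most abundant SLRP. Capitals mark its E-box, a string present in 13% of these windows, which begins 189 bases before the start. A match is a description of the letters and not a measured binding site.
Fmod, chr1:133964742-133964991, plus strand, GRCm39: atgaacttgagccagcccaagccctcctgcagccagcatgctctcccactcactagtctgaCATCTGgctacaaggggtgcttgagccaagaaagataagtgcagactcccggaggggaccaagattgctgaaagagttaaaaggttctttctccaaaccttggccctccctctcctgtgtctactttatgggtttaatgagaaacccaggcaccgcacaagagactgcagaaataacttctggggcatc
Of the bases in this window, 51.2% were G or C.

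Among the 9 genes, *Fmod* was the most abundant transcript of tail tendon and *Omd* the least, in every group. The 9 other family genes were left out of this order. To compare genes, CPM were divided by the length of the union of annotated exons in kilobases. In early WT mice, *Fmod* stood at 4646 ± 1765 CPM per kb (SD, n = 7) and *Dcn* at 622.8 ± 228.4. These were followed by *Kera* at 427.6 ± 199.1, *Prelp* at 248.8 ± 191.1 and *Bgn* at 147.5 ± 18.5. Below these lay *Lum* at 57.1 ± 13.9, *Aspn* at 38.4 ± 25.2, *Ogn* at 22.0 ± 9.41 and *Omd* at 1.68 ± 0.901 CPM per kb. Neighbours in this order were taken as separated when the higher gene was higher in every mouse of the group. In early WT mice this held for *Fmod* over *Dcn*, *Bgn* over *Lum* and *Ogn* over *Omd*, while *Dcn*, *Kera*, *Prelp* and *Bgn* were not separated from their neighbours among each other, nor were *Lum*, *Aspn* and *Ogn*. The order in early Fosl-2(Tg) mice differed from it by the exchange of *Prelp* and *Bgn*, a pair that was not separated in either group.

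*Kera* changed its place most. It took place 3 in both early groups, place 5 in established WT and place 7 in established Fosl-2(Tg) mice, at 427.6, 478.4, 170.8 and 35.5 CPM per kb. Not all of these places were separated from their neighbours. In established WT, *Bgn* was above *Kera* in 3 of 6 mice, and *Kera* above *Aspn* in all 6. In the established transgenic mice, *Lum* was above *Kera* in 5 of 7, and *Kera* above *Ogn* in 5 of 7. In established Fosl-2(Tg) mice, *Fmod* (2424 ± 1601 CPM per kb, n = 7) was above *Dcn* (356.8 ± 76.5) in 6 of 7 mice, the exception being replicate 5. With canonical transcript lengths, chosen as an alternative after the data had been seen, *Kera* held the same place as with exon lengths in each of the 4 groups, and *Fmod* and *Dcn* stayed at places 1 and 2. Without division by length, also chosen after the data had been seen, *Kera* was at place 4 in early WT, and with medians over mice it was at place 4 in established WT. Annotated exons of *Dcn* cover 13.03 kb while its canonical transcript has 6104 bases, so its level per kb depends on the length used.

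**Figure D1:**
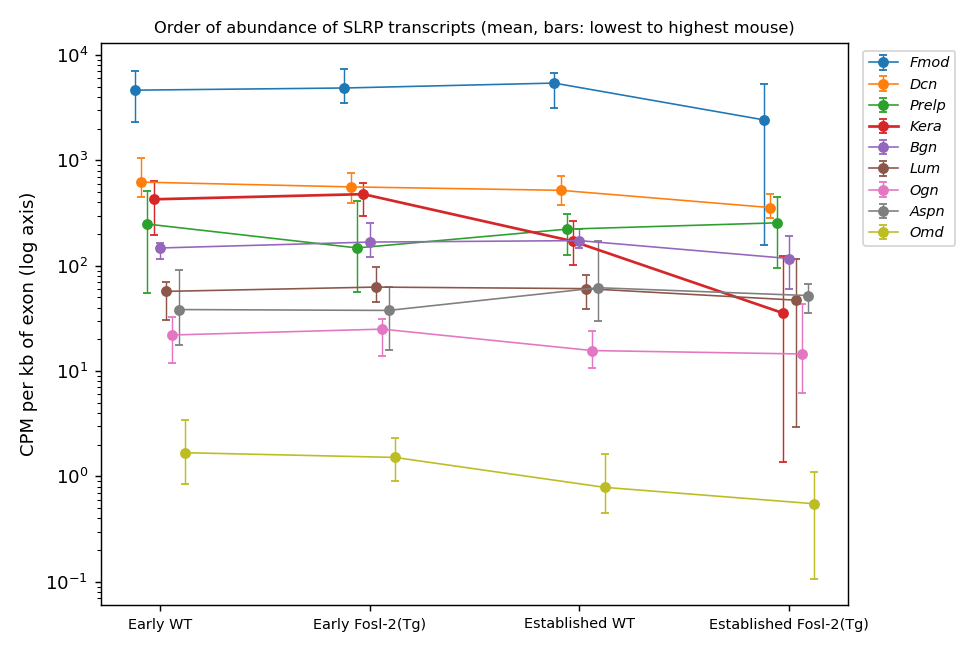
Mean level of each SLRP transcript in CPM per kb of annotated exon (log axis) in the 4 groups, with bars from the lowest to the highest mouse and lines that join the means of 1 gene. *Fmod* lies highest and *Omd* lowest throughout, and *Kera* drops from 427.6 in early WT to 35.5 CPM per kb in established Fosl-2(Tg) mice.

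Together the 9 genes took 2.84 ± 0.696% of all counts in early WT (n = 7), 2.495 ± 0.631% in early Fosl-2(Tg) (n = 8), 3.41 ± 0.641% in established WT (n = 6) and 2.28 ± 0.939% in established Fosl-2(Tg) mice (n = 7). The share in single libraries reached from 0.809% to 4.08%. These are shares of unscaled counts, so they also move with the counts of other abundant transcripts. *Col1a1* and *Col1a2* took means of 23.63%, 30.75%, 12.1% and 2.77% of all counts in the same 4 groups.

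The first comparison asked whether SLRP transcripts differed between Fosl-2(Tg) and WT tendons at the early stage. None of the 9 genes passed the threshold of edgeR's quasi-likelihood test (FDR of at most 0.05 after Benjamini-Hochberg adjustment over 15138 genes), and none had an unadjusted p of at most 0.05, which 1.96% of the genes tested had with higher and 4.1% with lower levels. Few genes passed the FDR threshold, with 0.00661% of the genes tested called higher and 0.033% called lower, and DESeq2 called 0 of the 9 as well. Log2 fold changes of the 9 genes lay between -0.76 (*Prelp*, SE 0.49) and 0.19 (*Ogn*, SE 0.23), with a median of 0.06 beside -0.01 for all genes.

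*Kera* ran from 521.6 CPM to 1724 CPM with a median of 1274 CPM in early WT, and from 795.6 to 1656 CPM with a median of 1268 CPM in early Fosl-2(Tg) mice. *Fmod* ran from 9235 to 27630 CPM (median 18910) in WT and from 13850 to 29210 CPM (median 17590) in Fosl-2(Tg) mice. *Dcn* ran from 5902 to 13730 CPM (median 6614) in WT and from 5141 to 9953 CPM (median 7178) in Fosl-2(Tg) mice. For each of these collagen-binding SLRPs the ranges of the early genotypes overlapped widely. No SLRP separated the early genotypes without overlap, where the background was 0.00661% of genes higher and 0.0462% lower. The 95% intervals of the log2 differences stay within 1 log2 unit of 0 for 8 of the 9 genes, the exception being *Prelp* with an interval from -1.80 to 0.29.

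**Figure D2:**
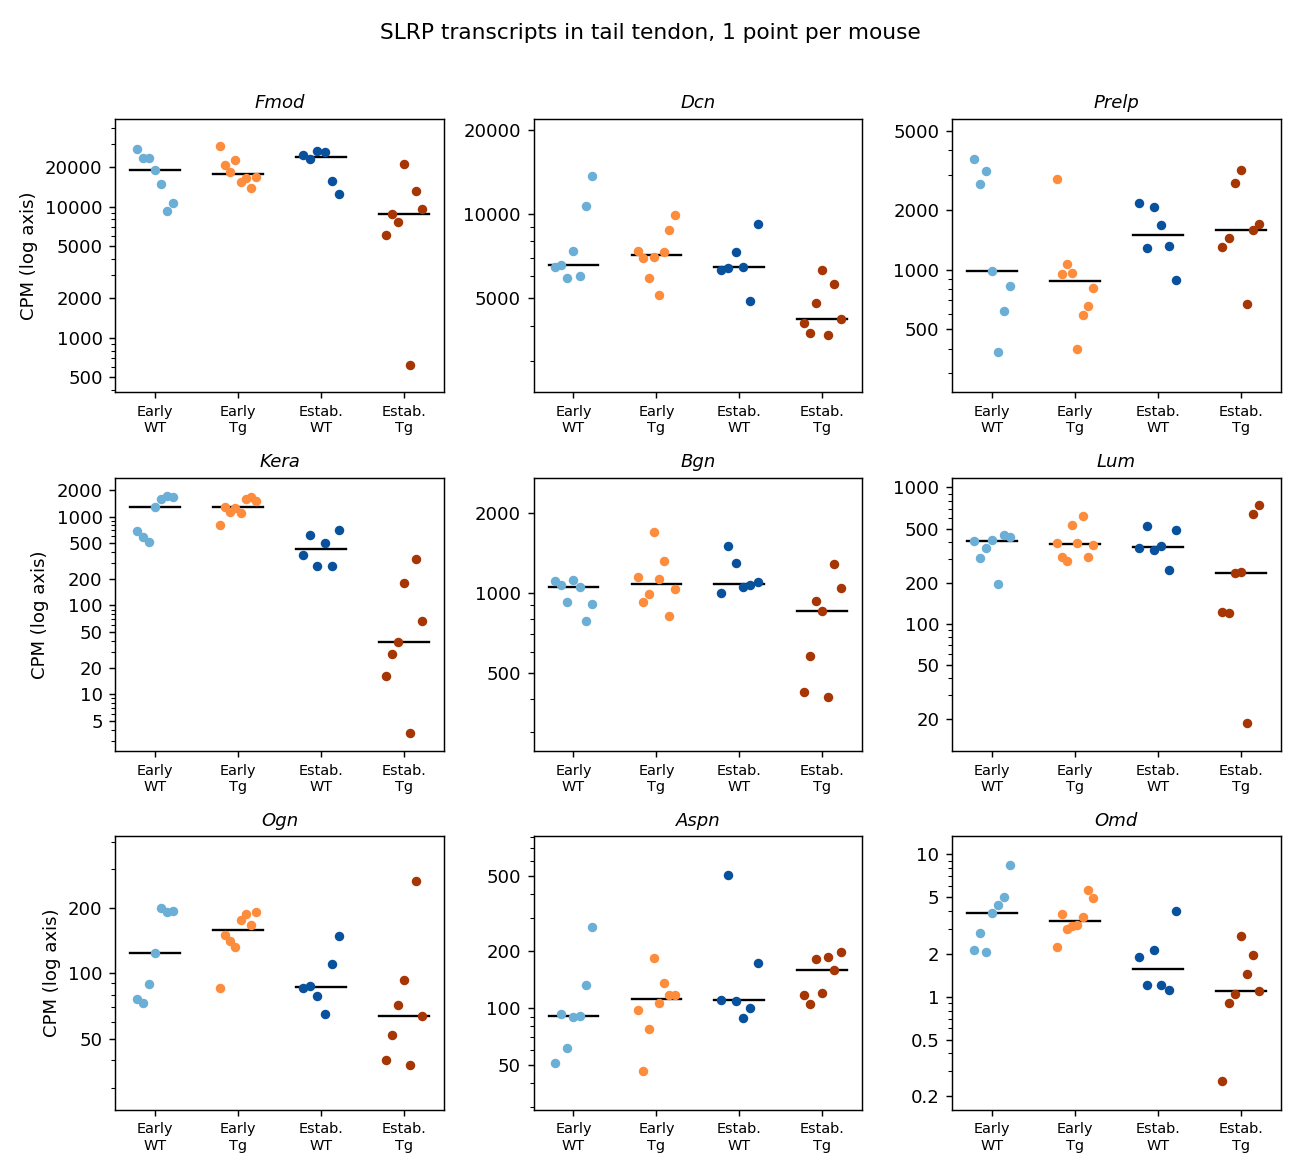
Level of each SLRP transcript in CPM (log axis), with 1 point per mouse and a line at the median, in early and established WT and Fosl-2(Tg) (Tg) mice. The 7 established Fosl-2(Tg) mice spread from 3.68 to 334.7 CPM for *Kera*, all below the 8 early Fosl-2(Tg) mice, and 1 of them lies far below the rest for *Fmod* and *Lum*.

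In the established stage, 8 of the 9 SLRPs had lower means in Fosl-2(Tg) than in WT tendons, but none passed the FDR threshold over 15862 genes. The median log2 fold change of the 9 was -0.48, beside 0.0054 for all genes tested, of which 3.14% were called higher and 3.37% lower. At an unadjusted p of 0.05, *Kera*, *Dcn*, *Fmod* and *Bgn* were lower and none was higher, where 13.1% of all genes tested were lower and 13.5% higher.

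*Kera*, a keratan sulfate SLRP first known from the corneal stroma, showed the widest difference. It ran from 275.3 to 710.5 CPM with a median of 438.2 CPM in established WT mice. In the Fosl-2(Tg) mice it ran from 3.68 CPM, at 51 counts, to 334.7 CPM, with a median of 39.1 CPM. The levels of 6 of the 7 transgenic mice lay below all WT mice, and replicate 6 lay within the WT range. The log2 fold change was -2.27 (SE 0.76, 95% interval -3.89 to -0.64, FDR = 0.0842 in edgeR). Without replicate 6 it was -3.04 (FDR = 0.0264), and without the male replicate 5 it was -2.05 (FDR = 0.0775). DESeq2 called *Kera* (-2.27, adjusted p = 0.0201), so the call depended on the test.

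*Fmod*, which binds collagen type I and steers fibril assembly, ran from 12390 to 26490 CPM (median 23950) in established WT and from 617.6 to 20990 CPM (median 8782) in Fosl-2(Tg) mice. Its level was below all WT mice in 5 of the 7 transgenic mice. The log2 fold change was -1.16 (SE 0.51, 95% interval -2.26 to -0.06, FDR = 0.167), and without replicate 5, which had the lowest value, it was -0.95 (FDR = 0.0897).

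*Dcn*, the dermatan sulfate SLRP that decorates collagen fibrils, ran from 4902 to 9206 CPM (median 6474) in WT and from 3699 to 6326 CPM (median 4227) in Fosl-2(Tg) mice. Again 5 of the 7 transgenic mice lay below all WT mice. The log2 fold change of -0.54 (SE 0.18, 95% interval -0.93 to -0.15) had an FDR of 0.0873 in edgeR and of 0.011 in DESeq2. Without replicate 5 it was -0.49 (FDR = 0.12 in edgeR). *Bgn*, its closest relative, ran from 999.6 to 1505 CPM (median 1084) in WT and from 405.8 to 1290 CPM (median 857.1) in Fosl-2(Tg) mice. Its log2 fold change was -0.56 (SE 0.25, 95% interval -1.10 to -0.01, FDR = 0.178), and without replicate 5 it was -0.45 (FDR = 0.233).

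The other 5 SLRPs had wide intervals that included 0. *Lum*, a keratan sulfate SLRP, spread most among the transgenic mice, from 18.8 to 739.4 CPM against 250 to 520.3 CPM in WT, with 5 of 7 below and 2 of 7 above all WT mice. Its log2 fold change was -0.36 with all mice and -0.15 without Fosl-2(Tg) replicate 5 (FDR = 0.719 and 0.858 in edgeR). *Prelp*, which links collagen to basement membranes, was the only one with a higher mean in Fosl-2(Tg) tendons, at a log2 fold change of 0.20 (SE 0.32, FDR = 0.709). *Ogn* ran from 65.5 to 148.9 CPM in WT and from 38.0 to 265.1 CPM in Fosl-2(Tg) mice. *Aspn*, which is known to bind collagen and transforming growth factor beta, ran from 88.4 to 506.0 CPM in WT and from 105.1 to 197.2 CPM in Fosl-2(Tg) mice. The sign of the *Aspn* difference rests on WT replicate 2, the mouse at 506.0 CPM, since the log2 fold change was -0.24 with it and 0.40 without it (FDR = 0.714 and 0.253 in edgeR). *Ogn* likewise had a log2 fold change of -0.11 with all mice and of 0.02 without Fosl-2(Tg) replicate 5. Without Fosl-2(Tg) replicate 6, the mouse at 265.1 CPM, its log2 fold change was -0.68 (FDR = 0.0968 in edgeR). *Omd*, best known from bone, had only 4 to 86 counts per established library, and its log2 fold change was -0.48 (SE 0.42, FDR = 0.478). No SLRP separated the established genotypes without overlap, against 1.48% of all genes higher and 2.33% lower.

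**Figure D3:**
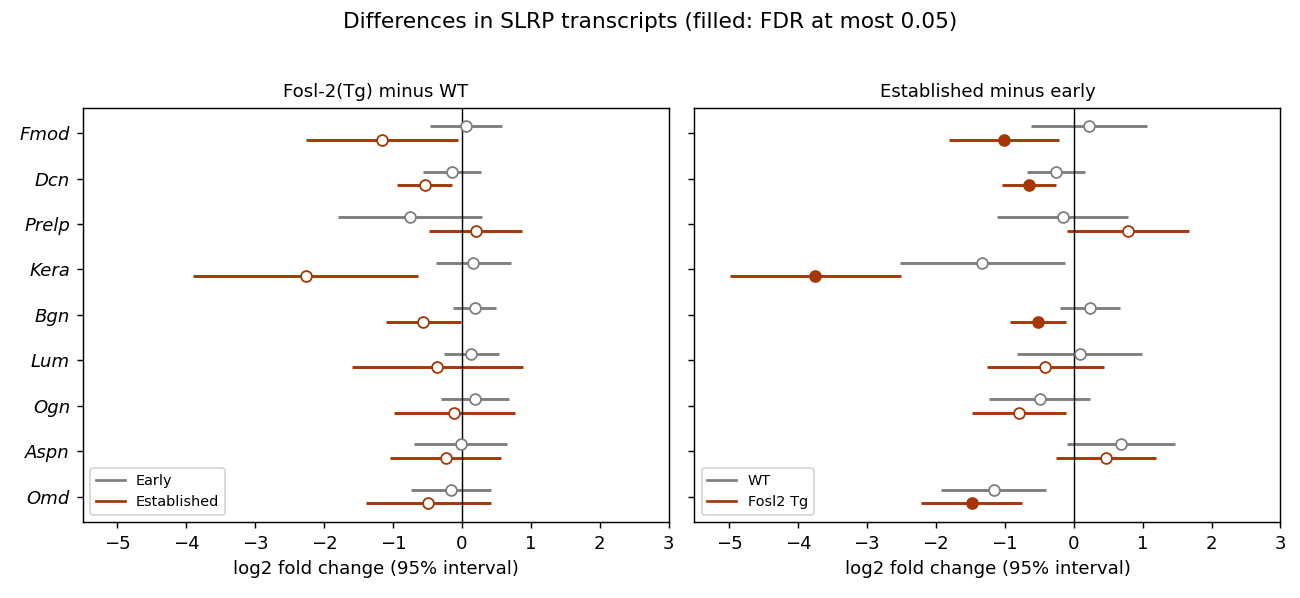
Log2 fold changes of the 9 SLRP transcripts with 95% intervals, left for Fosl-2(Tg) minus WT at the early (grey) and established (brown) stage, right for established minus early in WT (grey) and Fosl-2(Tg) mice (brown), with filled points for an FDR of at most 0.05 in edgeR. No genotype difference has a filled point, and 5 of the 9 stage differences of Fosl-2(Tg) mice do, with *Kera* farthest from 0 at -3.75.

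Markers of other cell types were also compared between the established genotypes, and few were called. Of all genes tested there, 3.14% were called higher and 3.37% lower. All 10 skeletal muscle markers had lower means in Fosl-2(Tg) mice (median log2 fold change -1.74, 0 called), and their summed level ran from 63.4 to 19520 CPM in WT and from 47.9 to 6608 CPM in Fosl-2(Tg) mice. With the mean of these markers as a covariate, added after the data had been seen, *Kera* had a log2 fold change of -2.81 (FDR = 0.0445 in edgeR). All 4 erythroid markers that passed the filter had higher means (median log2 fold change 2.38, 0 called), and the summed level of the 5 listed was 8.94 to 20.1 CPM in WT and 10.2 to 125.6 CPM in Fosl-2(Tg) mice. Of 10 macrophage markers, 9 had higher means and *Cd163*, a scavenger receptor, was called (log2 fold change 1.07, SE 0.14, FDR = 0.00465), with summed levels of 719.2 to 1237 CPM in WT and 904.9 to 1568 CPM in Fosl-2(Tg) mice. None of the 10 muscle and 10 macrophage markers was at 0 in a whole group. Of 4 sheath, 4 keratinocyte, 6 endothelial, 2 adipocyte and 4 Schwann cell markers that passed the filter, none was called, and of 3 cartilage and bone markers 1 was (*Col2a1*). The part of these cells in the SLRP values was not tested.

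Whether the genotype difference itself differed between the stages was tested by an interaction term over all 28 mice. No SLRP passed the threshold, while 3.43% of 16082 genes were called in the positive and 4.0% in the negative direction. *Kera* came nearest, with an interaction of -2.43 on the log2 scale (SE 0.79, 95% interval -4.05 to -0.81, FDR = 0.0557 in edgeR). Without replicate 5 of the established Fosl-2(Tg) mice it was -2.22 (FDR = 0.0492), and without replicate 6 it was -3.21 (FDR = 0.00867). It was also called without replicate 4 of that group (FDR = 0.0386), without early WT replicate 5 (FDR = 0.0434) and by DESeq2 (adjusted p = 0.0235), so the call depended on the test and on single mice. *Bgn* (-0.75, FDR = 0.104) and *Fmod* (-1.23, FDR = 0.168) also had 95% intervals below 0, and *Bgn* was called without replicate 6 (-0.91, FDR = 0.0381).

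Stage differences within a genotype set younger males against older mice that were mostly female. In Fosl-2(Tg) mice, 5 of the 9 SLRPs were lower at the established stage, where 25.8% of all genes tested were called higher and 22.0% lower. *Kera* fell by 3.75 on the log2 scale (SE 0.60, FDR = 1.78e-05 in edgeR). Its 8 early mice (795.6 to 1656 CPM) lay above all 7 established mice (3.68 to 334.7 CPM), and *Kera* was the only one of the 9 without overlap, against 6.08% of genes higher and 8.03% lower. Among the other family genes, its neighbour *Epyc* was likewise lower without overlap. *Omd* fell by 1.48 (SE 0.36, FDR = 0.00141), from 2.22 to 5.62 CPM in the early to 0.257 to 2.67 CPM in the established mice. *Fmod* fell by 1.007 (SE 0.39, FDR = 0.034), *Dcn* by 0.65 (SE 0.19, FDR = 0.00674) and the X-linked *Bgn* by 0.52 (SE 0.20, FDR = 0.0335). Without the male replicate 5, 4 of these calls stood and *Bgn* had an FDR of 0.0595. Leaving out replicate 1 of the established Fosl-2(Tg) mice left 3 calls, since *Bgn* (FDR = 0.0659) and *Fmod* (FDR = 0.061) were lost. The call of *Bgn* was also lost without early Fosl-2(Tg) replicate 4 or 6 or established replicate 2 (FDR = 0.0733, 0.0501 and 0.0609), and that of *Fmod* without early replicate 1 or established replicate 3 (FDR = 0.0637 and 0.0522). *Ogn* fell short (log2 fold change -0.79, FDR = 0.0526) and was called without established replicate 6 (-1.38, FDR = 0.000125). *Prelp* had a positive log2 fold change of 0.79 (FDR = 0.132), which was called without early Fosl-2(Tg) replicate 1 (1.21, FDR = 0.0163).

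Markers of several cell types were also compared between these Fosl-2(Tg) groups, where 25.8% of all genes tested were called higher and 22.0% lower. Of 10 tendon fibroblast markers tested, which include *Kera* and *Fmod*, 9 were called lower (median log2 fold change -1.94), and the 8 that are not SLRPs summed to 215400 to 589300 CPM in early and 2909 to 53680 CPM in established mice. Most of that sum was *Col1a1* and *Col1a2*, with means of 260800 and 129400 CPM in early Fosl-2(Tg) mice. Of 5 erythroid markers, 4 globin genes were called higher (median of the 5 markers 3.61), with summed levels of 7.79 to 11.3 CPM in early and 10.2 to 125.6 CPM in established mice. Of 5 Schwann cell markers, 3 were called higher and 1 lower (sums of 316.0 to 458.7 and 259.6 to 659.7 CPM), and of 10 macrophage markers 2 were called higher (832.3 to 1221 and 904.9 to 1568 CPM). None of 10 muscle markers was called (739.4 to 9833 and 47.9 to 6608 CPM). The part of these markers in the SLRP values was not tested.

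In WT mice no SLRP passed the threshold between the stages, where 2.33% of genes were called higher and 3.48% lower. *Omd* came nearest, from 2.06 to 8.37 CPM in the early and 1.11 to 3.97 CPM in the established mice, with a log2 fold change of -1.16 (SE 0.37, FDR = 0.0614 in edgeR). The call of *Omd* was made by DESeq2 (adjusted p = 0.0251) and when 1 of early WT replicates 1, 2 or 3 or established WT replicate 6 was left out (FDR = 0.0178 to 0.0481). *Kera* had a log2 fold change of -1.32 (SE 0.59, FDR = 0.179), with 4 of the 6 established WT mice below all 7 early WT mice. Both stage comparisons use samples of the genotype comparisons and are not independent of them.

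SLRP counts were also set against the summed counts of *Col1a1* and *Col1a2* in the same library, a ratio that does not depend on scaling between libraries. These genes encode the chains of type I collagen, the main fibril protein of tendon, and took 12.1 ± 2.91% of all counts in established WT (n = 6) and 2.77 ± 2.10% in established Fosl-2(Tg) mice (n = 7). Both were called lower in established Fosl-2(Tg) mice, *Col1a1* with a log2 fold change of -2.5 (SE 0.63, FDR = 0.0356) and *Col1a2* with -2.23 (SE 0.57, FDR = 0.0367 in edgeR). Relative to collagen, 8 of the 9 SLRPs had a higher mean ratio in established Fosl-2(Tg) mice, as did 99.98% of the 15539 genes counted in every library. The ratio moves with the collagen counts below it as well as with the SLRP counts above it. *Dcn* reached a median of 220.1 counts per 1000 collagen counts in established Fosl-2(Tg) mice, against 52.6 in established WT, 35.97 in early WT and 18.3 in early Fosl-2(Tg) mice. The mean log2 ratio was higher in the transgenic mice by 3.14 for *Prelp*, 2.48 for *Dcn*, 2.35 for *Bgn* and 1.43 for *Fmod*, and for these 4 genes all 7 transgenic mice lay above all WT mice. The same separation held for 79.9% of 15860 genes tested, with a median log2 difference of 3.02 over the 15539 genes counted in every library, so it is not particular to the SLRPs. For *Aspn* (3.06), *Ogn* (2.64) and *Lum* (1.99) this held for 6 of 7 mice, and for *Omd* (2.39) for 4 of 7. Without replicate 5, whose collagen counts were lowest, the differences for these 8 genes were 1.51 to 2.86. The 9 other family genes also had higher mean ratios, and for 7 of them all 7 transgenic mice lay above all WT mice.

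*Kera* was the exception. Its mean log2 ratio to collagen was -7.91 ± 0.834 in early WT (SD, n = 7), -8.21 ± 0.511 in early Fosl-2(Tg) (n = 8), -8.01 ± 0.704 in established WT (n = 6) and -8.32 ± 0.757 in established Fosl-2(Tg) mice (n = 7). These 4 means lay within 1 SD of each other, whereas the mean level of *Kera* ran from 1286 CPM in early to 95.5 CPM in established Fosl-2(Tg) mice. At the early stage, all 9 ratios had a lower mean in Fosl-2(Tg) mice, by 0.30 (*Kera*) to 1.14 (*Prelp*) on the log2 scale, with overlapping groups. The collagen counts below these ratios took 30.75 ± 7.195% of all counts in early Fosl-2(Tg) (n = 8) and 23.63 ± 8.44% in early WT mice (n = 7). The median log2 fold change of the 9 SLRPs at that stage was 0.06. No test was made of these ratios, and the share of all genes with a lower early ratio was not counted.

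**Figure D4:**
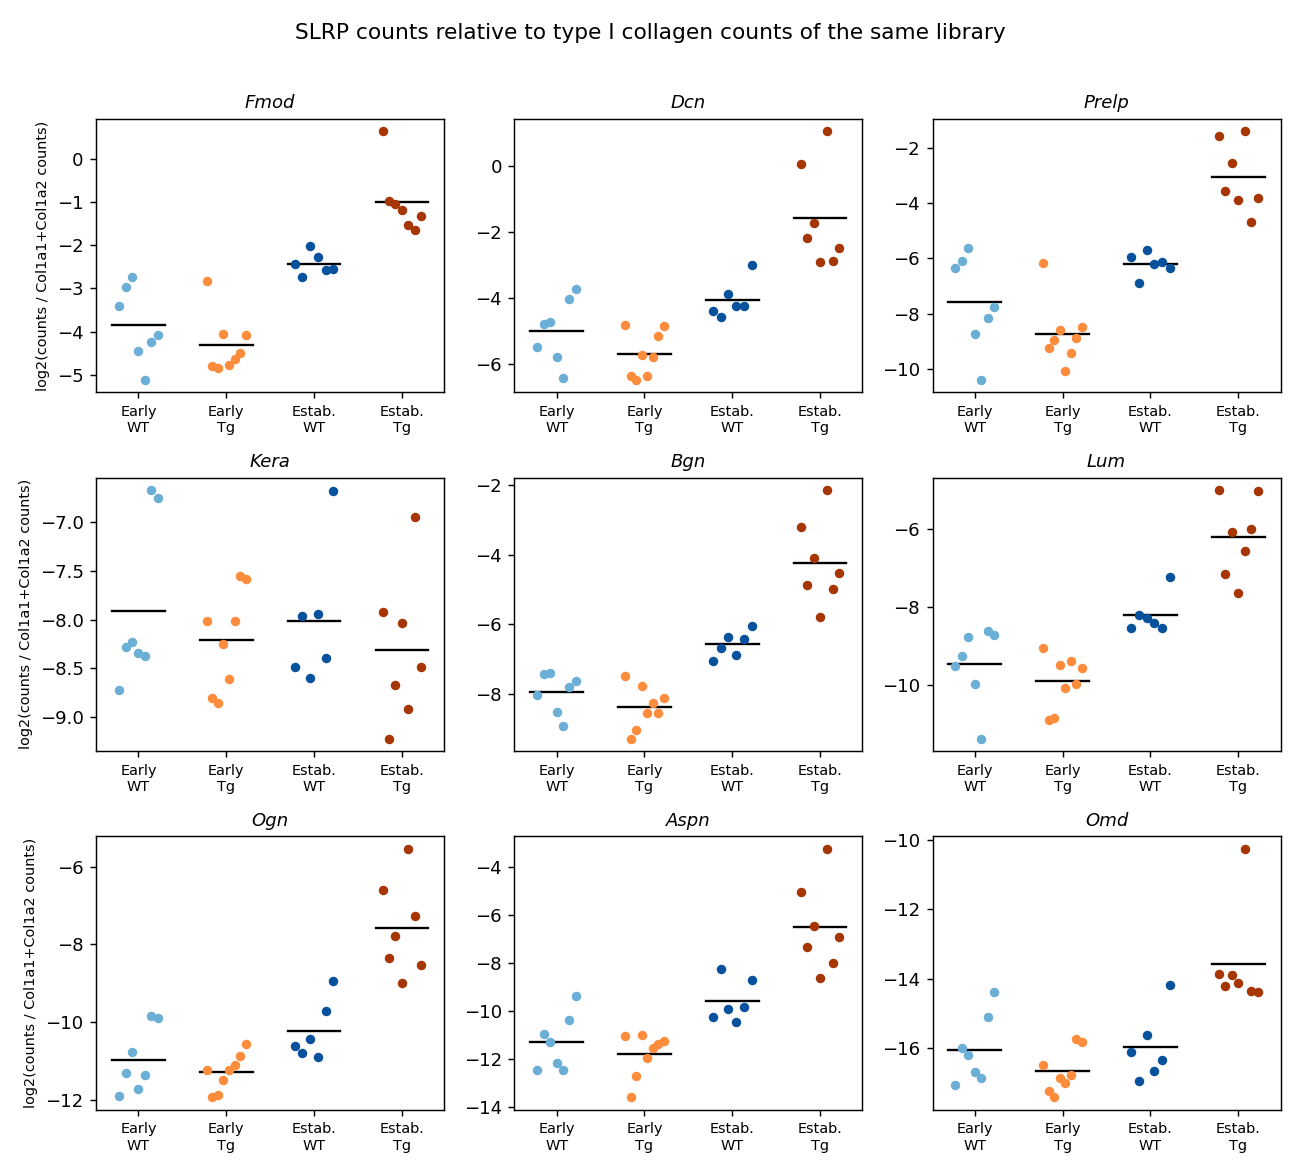
Log2 ratio of SLRP counts to the summed *Col1a1* and *Col1a2* counts of the same library, with 1 point per mouse and a line at the mean, in the 4 groups. All 7 established Fosl-2(Tg) mice lie above the 6 established WT mice for *Fmod*, *Dcn*, *Prelp* and *Bgn*, while *Kera* has means between -8.32 and -7.91 in all groups.

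Variation among mice of a group was described by Pearson's r between deviations from the group means of log2 CPM over 28 mice, with no test, since the points share libraries, depth and tissue composition. The 9 genes did not vary as 1 unit. *Kera* varied most (SD 1.12 of log2 CPM) and *Dcn* least (SD 0.33). *Kera* followed *Ogn* (r = 0.81, Spearman's rho = 0.80) and its chromosomal neighbour *Lum* (r = 0.78, rho = 0.61). *Bgn* followed *Lum* (r = 0.77, rho = 0.74), and *Dcn* followed *Omd* (r = 0.70, rho = 0.64). *Prelp* followed *Fmod* of the same cluster (r = 0.64, rho = 0.83) and ran against *Ogn*, *Aspn* and *Omd* (r = -0.42, -0.37 and -0.33). On chromosome 10, *Dcn* had an r of 0.36 with *Lum* and 0.55 with *Kera*. On chromosome 13, r was 0.67 for *Ogn* and *Omd*, 0.32 for *Aspn* and *Omd* and 0.28 for *Ogn* and *Aspn*. The 7 pairs that share a cluster had a median r of 0.55 (0.28 to 0.78) and the other 29 pairs a median of 0.26 (-0.42 to 0.81), so the ranges overlapped. Part of the *Fmod* values rests on few mice, since r between *Fmod* and *Kera* went from 0.58 to -0.05 without the 2 mice farthest from the median of *Fmod*, and its Spearman's rho was -0.09.

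**Figure D5:**
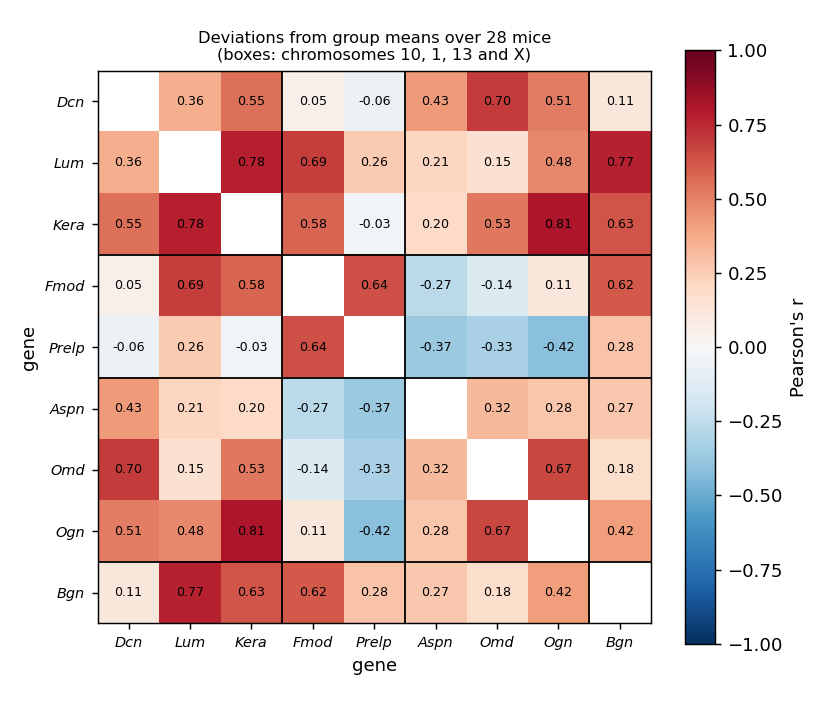
Pearson's r between the deviations of log2 CPM from group means for each pair of SLRP genes over 28 mice, ordered by chromosome, with lines between chromosomes 10, 1, 13 and X. Values range from -0.42 (*Prelp* and *Ogn*) to 0.81 (*Kera* and *Ogn*), and *Prelp* has negative values with all 3 genes of chromosome 13.

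The genes outside the list most alike to the mean deviation of the 9 SLRPs over 28 mice were *Poglut3* (r = 0.90), *C1qtnf2* (0.89), *Pdia4* (0.89), *Zeb1* (0.88) and *Tnmd* (0.88). *Pdia4* encodes a protein disulfide isomerase of the endoplasmic reticulum, *Zeb1* a transcription factor and *Tnmd* tenomodulin, a marker of tendon cells. Among the SLRPs, *Kera* (r = 0.85) and *Lum* (0.81) were closest to the mean of the other 8, and *Aspn* (0.13) and *Prelp* (0.04) farthest.

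Of the 9 other family genes, 1 was called at the established stage and none at the early stage. Of all genes tested, 3.14% were called higher and 3.37% lower at the established stage, and 0.00661% and 0.033% at the early stage. *Chad* (chondroadherin, a leucine-rich protein that binds collagen and integrins) ran from 1897 to 3704 CPM in established WT and from 70.2 to 1918 CPM in established Fosl-2(Tg) mice, so that only the highest transgenic mouse overlapped the WT range. Its log2 fold change was -1.90 (SE 0.51, FDR = 0.0414 in edgeR). The call was lost when any 1 of 11 of the 13 established mice was left out (FDR = 0.0502 to 0.0806), and it stood without Fosl-2(Tg) replicate 4 or 5 (FDR = 0.0158 and 0.0214). *Epyc* (epiphycan), the neighbour of *Kera*, ran from 17.5 to 44.4 CPM in WT and from 1.95 to 20.7 CPM in Fosl-2(Tg) mice (log2 fold change -1.38, SE 0.43, FDR = 0.0693). The genotype difference of *Epyc* differed between the stages (interaction -1.73, SE 0.49, FDR = 0.0324), a call that was lost without early WT replicate 1, 2 or 3 or established WT replicate 2 or 6 (FDR = 0.0526 to 0.0574). The remaining 7 genes had established log2 fold changes of -0.59 (*Ecm2*, FDR = 0.151), -0.48 (*Nyx*), -0.19 (*Tsku*), -0.01 (*Chadl*), 0.19 (*Podn*), 0.34 (*Podnl1*) and 0.52 (*Optc*), none of which was called by edgeR. Between the stages of Fosl-2(Tg) mice, *Epyc* (-1.67, FDR = 0.000299) and *Chad* (-1.12, FDR = 0.0396) were lower and *Optc* (1.38, FDR = 0.00279) and *Podn* (0.47, FDR = 0.0208) higher. In that comparison 25.8% of all genes tested were called higher and 22.0% lower. Omission of 1 of 5 mice lost the call of *Chad* (early Fosl-2(Tg) replicates 1 and 4, established replicates 1, 2 and 7, FDR = 0.0573 to 0.108), and the same number lost that of *Podn* (early replicates 2 and 3, established replicates 3, 6 and 7, FDR = 0.0513 to 0.0729).

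The genes that build and read SLRPs were counted at the established stage, beside the 3.14% of genes called higher and 3.37% called lower. Of 20 genes tested for the glycosaminoglycan linker and chondroitin or dermatan sulfate, none was called (median log2 fold change -0.15, beside 0.0054 for all genes). Of 7 keratan sulfate genes (median 0.30), 1 was lower, namely *Chst2*, a sulfotransferase (log2 fold change -1.10, SE 0.31, FDR = 0.0476), with 2.31 to 12.7 CPM in Fosl-2(Tg) against 12.96 to 20.1 CPM in WT mice. No mouse of either genotype overlapped the other for *Chst2*, yet the call was lost when any 1 of 10 of the 13 mice was left out (FDR up to 0.097). Neither of the 2 tyrosine sulfotransferases was called (median -0.15). Of 7 growth factors bound by SLRPs (median -0.22), 1 was higher, the bone morphogenetic protein gene *Bmp4* (0.39, SE 0.10, FDR = 0.0317). Of 11 receptors (median -0.07), *Tlr4*, the Toll-like receptor that biglycan can engage, was higher (0.89, SE 0.21, FDR = 0.0276), from 49.1 to 131.3 CPM against 30.8 to 48.5 CPM without overlap. *Itga2*, the collagen-binding alpha-2 integrin subunit, was lower (-1.24, SE 0.23, FDR = 0.0141), with 25.1 to 99.73 CPM in Fosl-2(Tg) and 99.66 to 154.9 CPM in WT mice. The call of *Itga2* stood without any 1 of the 13 mice (FDR = 0.0039 to 0.037), that of *Tlr4* was lost without 5 of them (FDR up to 0.0609) and that of *Bmp4* without 7 (FDR up to 0.0685). Of 9 proteinases tested (median 0.15), 1 was higher, the collagenase gene *Mmp13* (7.34, SE 1.99, FDR = 0.0444). Its values ran from 0.771 to 1022 CPM in Fosl-2(Tg) mice with a median of 2.45 CPM, against 0.2997 to 3.42 CPM in WT, so that the groups overlapped. Of the 7 Fosl-2(Tg) mice, replicates 6 (1022 CPM) and 7 (403.6 CPM) lay above all WT mice and the other 5 had at most 2.83 CPM. Its call was lost without any 1 of 10 mice (FDR up to 0.0885). Early Fosl-2(Tg) mice had a median of 99.0 CPM of *Mmp13* and early WT mice one of 0.333 CPM, a difference that was not called (log2 fold change 3.39, SE 1.42, FDR = 0.775).

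Of 11 fibrillar collagen genes, 4 were lower and none higher at the established stage (median log2 fold change -0.98). Besides *Col1a1* and *Col1a2*, these were *Col2a1* (-1.63, FDR = 0.0207) and *Col11a1* (-1.46, FDR = 0.0483 in edgeR). Of 10 tendon fibroblast markers, which include *Kera* and *Fmod*, all had lower means (median -1.61) and 5 were called, among them the transcription factor gene *Scx* (-1.28, FDR = 0.0444), *Tnmd* (-2.03, FDR = 0.0386) and *Ptx4* (-1.95, FDR = 0.0235). Omission of single mice left the call of *Col2a1* in place in all 13 cases (FDR up to 0.0456). It removed the calls of *Col1a1* in 8, *Col1a2* in 9, *Col11a1* in 10, *Scx* in 9, *Tnmd* in 9 and *Ptx4* in 3 cases, with FDR up to 0.0931, while DESeq2 called all 7 of these genes (adjusted p of 0.0149 or lower). At the early stage none of the genes in these lists was called.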

How the data were processed

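Bulk RNA was sequenced as paired-end, rRNA-depleted libraries of whole tail tendon fascicles from 28 mice. The deposited raw counts per gene were made by the authors with STAR on GRCm39 and featureCounts (GENCODE M26). The strand setting and the treatment of multimapping reads were not given in the sources used here. Gene names, positions and exon lengths were taken from GENCODE M39, which matched 25505 of 25719 identifiers.

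Mice were grouped by genotype and stage from the labels. Genes were filtered with filterByExpr (minimum count 10, minimum total 15), scaled with TMM and tested with the quasi-likelihood test of edgeR 4.0.16 in R 4.3.3, p-values being adjusted by Benjamini-Hochberg across every gene of the fit (FDR threshold 0.05). Genotype comparisons were fitted within a stage, and the interaction and stage comparisons over all 4 groups. Adjusted p values beside DESeq2 are from version 1.42.0. Intervals are 95% and two-sided. CPM were scaled over all libraries, log2 CPM used a prior count of 2, and library totals ranged from 9645598 to 66894396. The test was checked on simulated counts.

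The SLRP genes and the other gene lists were chosen with earlier results of these data known. Named from the lists were all SLRP and family genes, other list genes at an FDR of at most 0.05 at the established stage, and the 5 genes most alike to the SLRP mean. Promoter windows were read from the GRCm39 reference genome. The window of *Kera* is not reported here, so no motif was counted over all 9 genes. Alternatives were DESeq2, RLE scaling, scaling without collagen or without muscle, erythroid and keratinocyte genes, other filters, the replicate number as a block, sex, 1 fit for all mice, and omission of each mouse. A muscle covariate, canonical or no length, and omission of mice for ratios and co-variation were added after the data had been seen.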

Additional observations from a re-analysis of the deposited data

Results flagged for a closer look

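Of 44 sets of values (11 genes in 4 groups), 6 held a mouse whose gap to the nearest other mouse was beyond Dixon's 95% limit. Normally distributed values pass that limit in about 1 in 20 sets, but it was applied here to CPM without a log scale. The count of 6 is therefore not read as an excess. *Prelp* reached 2878 CPM in early Fosl-2(Tg) replicate 1, with the next mouse at 1073 CPM, and the same mouse had 3505 CPM of *Chad*, with the next at 2028 CPM. *Ogn* reached 265.1 CPM in established Fosl-2(Tg) replicate 6 (next 92.9 CPM). *Aspn* reached 268.8 CPM in early WT replicate 7 (next 131.7 CPM) and 506.0 CPM in established WT replicate 2 (next 173 CPM). *Omd* reached 3.97 CPM in established WT replicate 6 (next 2.12 CPM). All 6 were the highest value of their set.

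The genotype difference itself differed between the stages, by the interaction test of edgeR, for 12 of the named genes. All but *Epyc* were named because they were called at the established stage, and the interaction reuses those mice. Their interaction calls are therefore no independent support. Of all 16082 genes tested, 3.43% were called in the positive and 4.0% in the negative direction. Negative interactions, in log2 units, were those of *Epyc* (-1.73), *Chst2* (-1.34), *Itga2* (-1.63), *Col1a1* (-3.04), *Col1a2* (-2.69), *Col2a1* (-2.32), *Col11a1* (-1.95), *Scx* (-1.41), *Tnmd* (-1.94) and *Ptx4* (-1.95). Positive interactions were those of *Tlr4* (1.26) and *Cd163* (1.44). When each of the 28 mice was left out in turn, *Scx* lost the call in 17 cases, *Tnmd* in 8 and *Epyc* in 5, and the other 9 genes in none. None of the 9 SLRPs was among the 12.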

How the results depend on the processing

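In the main tests, replicate numbers were not used to pair the mice. Same-numbered mice of both genotypes correlated at -0.28 to 0.45 (over 0.1 in 4 of 7 pairs) at the early stage. At the established stage they correlated at -0.47 to 0.83 (4 of 6). No values of differently numbered mice were set beside these, so they cannot show whether the numbers mark pairs. With the replicate number as a block, the SLRPs called numbered 0 at the early stage, 1 at the established stage (*Kera*, -3.37, FDR = 0.0344), 1 for the interaction (*Kera*), 0 for the WT stages and 7 for the Fosl-2(Tg) stages, and genes called at the early stage went from 6 to 11. Without a block the numbers were 0, 0, 0, 0 and 5. DESeq2 called 0, 2, 1, 1 and 6 SLRPs. At the established stage, *Kera* alone was called (1 SLRP) with all 28 mice in 1 fit, with sex as a covariate (-2.60) and with the muscle covariate. All genes called went from 6 to 23 at the early stage with DESeq2, from 1032 to 2146 at the established stage (1663 with 1 fit for 28 mice, 1719 with the muscle covariate, 560 with females only), from 1195 to 1793 for the interaction (725 with females only) and from 935 to 1573 between the WT stages.

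Signs of uncalled differences turned with the block for *Aspn* (0.061 early, 0.022 established), *Nyx* (0.16 early), *Chadl* (0.023 established) and *Prelp* (0.10 between WT stages). They turned with established females only for *Ogn* (0.066), *Chadl* (0.020) and *Tsku* (0.020), and with the muscle covariate for *Nyx* (0.36 early). Females only could give no other value at the early stage, where all mice were male. In established WT, 5 of 9 SLRPs kept their place in the order of abundance with longest or canonical transcript lengths or with medians over mice, and 5 of 9 did in early WT without division by length.

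When single mice were omitted, the number of SLRPs called ranged from 0 to 0 at the early stage, 0 to 1 at the established stage, 0 to 2 for the interaction, 0 to 1 between the WT stages and 3 to 6 between the Fosl-2(Tg) stages. Early log2 fold changes that changed sign ranged from -0.22 to 0.020 (*Dcn*), -0.052 to 0.20 (*Fmod*), -0.16 to 0.35 (*Aspn*), -0.27 to 0.11 (*Omd*), -0.11 to 0.32 (*Optc*), -0.25 to 0.20 (*Nyx*), -0.13 to 0.029 (*Chadl*) and -0.10 to 0.22 (*Podnl1*). At the established stage they ranged from -0.68 to 0.059 (*Ogn*), -0.38 to 0.40 (*Aspn*) and -0.073 to 0.035 (*Chadl*). For the interaction they ranged from -0.60 to 0.42 (*Aspn*), -0.032 to 0.10 (*Chadl*) and -0.56 to 4.46 (*Mmp13*). Between the WT stages they ranged from -0.037 to 0.19 (*Lum*), -0.36 to 0.12 (*Prelp*) and -0.076 to 0.23 (*Epyc*). The cause of these changes was not tested. Of the SLRP values from these omissions, 714 kept direction and side of the threshold, 19 changed sign, 15 became calls and 8 lost a call. Counts of *Omd* (4 to 235 per library) limit its precision.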
